A study of Mus musculus with 4 samples.

Results

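The immediate early genes of neuronal activity examined here were Fos, Fosb, Junb, Egr1, Egr2, Egr3, Egr4, Arc, Nr4a1 and Npas4, 10 of the 32285 genes in the spatial count tables, taken by gene symbol. They were followed in mouse brain sections after photothrombotic (PT) injury, in which light on the skull over the somatosensory cortex of anaesthetised mice given Rose Bengal clots the vessels below. The sections were profiled by Visium, which counts polyadenylated RNA as unique molecular identifiers (UMIs) on a grid of barcoded spots, each covering several cells. The 8 slices, 1 mouse each, lay on 4 capture areas, and the study followed the growth of fibroblasts and immune cells into the lesion. One area held the slice at rest (wild type, uninjured) and the slice at 2 days post injury (dpi), a further area a pair of wild-type mice at 7 dpi, another a pair at 21 dpi, and the last 2 slices at 21 dpi from Cthrc1(creER); R26(DTA) mice.

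The deleter genotype places a tamoxifen-dependent Cre under the fibroblast gene Cthrc1 together with a Cre-activated diphtheria toxin gene, and the study set these mice aside since no deletion could be seen. The age of each mouse is not in the labels. No sham-operated brain is among the slices. The slices held 9340 spots and 123344741 UMIs, 11332780 to 23677298 UMIs a slice, and the median spot held 12447 to 16158 UMIs except in the 2 dpi slice, where it held 2633.5. Levels are given as UMIs per 10000 UMIs of the spots summed. A spot was called fibrotic at 5 or more Col1a1 UMIs per 10000 (Col1a1 encodes collagen 1), which took 3 spots at rest, 26 at 2 dpi, and 112 to 392 in each later slice. Spots with no Col1a1 UMI, 228 to 1641 a slice, served as tissue outside the scar, and their distance was counted in steps on the hexagonal grid from the nearest fibrotic spot. They made up 95.7% of the slice at rest and 95.1% at 2 dpi, but 24.1% to 47.5% of each later slice. Spots with some Col1a1 below the fibrotic limit were in neither class.

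Immediate early genes are transcribed within minutes of a stimulus without new protein synthesis. In neurons, calcium entry through NMDA receptors and voltage-gated channels activates kinases that act on the transcription factors CREB, SRF with Elk1, and MEF2, which sit on these promoters beforehand. Most of the 10 genes encode transcription factors: Fos, Fosb and Junb form AP-1 dimers, Egr1 to Egr4 are zinc finger proteins, Nr4a1 is an orphan nuclear receptor, and Npas4 is a basic helix-loop-helix factor that is largely restricted to neurons. Arc differs in being a direct effector, a synaptic protein that drives removal of AMPA receptors. Several of them are not specific to neurons: Fos, Junb, Egr1, Egr2 and Nr4a1 are also induced in macrophages, fibroblasts and vessels.

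The promoters of the members are shown for the binding letters of CREB and SRF. RefSeq promoter sequence (GRCm38.p6, the same assembly as the mm10 build of the count tables) was at hand for 7 of the 10 genes, and the 250 bases before the transcript start of 5 of them are printed 5′ to 3′ on the gene's strand. Capitals mark the half-site of the cAMP response element that CREB binds, TGACG or its reverse complement CGTCA, and the CArG box that SRF binds.
Fos promoter, chr12:85473640-85473889, forward strand: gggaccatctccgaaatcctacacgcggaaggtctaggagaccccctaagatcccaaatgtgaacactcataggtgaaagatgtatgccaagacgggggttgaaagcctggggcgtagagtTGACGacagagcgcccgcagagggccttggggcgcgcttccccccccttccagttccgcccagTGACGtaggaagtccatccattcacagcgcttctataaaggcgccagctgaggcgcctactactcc
Egr2 promoter, chr10:67537619-67537868, forward strand: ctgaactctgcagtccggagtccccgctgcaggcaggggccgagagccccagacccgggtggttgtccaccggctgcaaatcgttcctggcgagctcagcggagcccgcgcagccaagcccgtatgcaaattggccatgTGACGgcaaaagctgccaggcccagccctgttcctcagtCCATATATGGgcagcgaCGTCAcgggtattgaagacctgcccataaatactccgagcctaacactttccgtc
Egr4 promoter, chr6:85513590-85513839, reverse strand: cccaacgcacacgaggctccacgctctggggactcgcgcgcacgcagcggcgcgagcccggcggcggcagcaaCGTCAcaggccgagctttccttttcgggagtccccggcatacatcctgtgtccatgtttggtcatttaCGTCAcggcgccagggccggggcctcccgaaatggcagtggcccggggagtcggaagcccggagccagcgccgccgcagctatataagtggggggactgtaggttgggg
Nr4a1 promoter, chr15:101266596-101266845, forward strand: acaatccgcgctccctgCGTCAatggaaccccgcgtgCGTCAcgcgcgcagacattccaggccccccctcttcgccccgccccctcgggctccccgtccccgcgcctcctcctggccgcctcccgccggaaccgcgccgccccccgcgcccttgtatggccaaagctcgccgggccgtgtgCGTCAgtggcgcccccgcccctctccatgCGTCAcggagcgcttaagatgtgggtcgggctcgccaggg
Npas4 promoter, chr19:4989972-4990221, reverse strand: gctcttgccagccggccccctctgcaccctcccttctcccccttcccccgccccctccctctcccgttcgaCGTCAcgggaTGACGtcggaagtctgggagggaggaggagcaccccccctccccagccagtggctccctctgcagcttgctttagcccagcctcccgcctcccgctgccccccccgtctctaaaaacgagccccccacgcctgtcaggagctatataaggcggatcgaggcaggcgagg
All 7 promoters held a half-site and 5 of the 7 held at least 2, with Egr2 counted at the best of its 5 annotated starts, against 17.8% and 3.90% of all 32851 promoters of that length. The 4 half-sites of Nr4a1 were the most among the 7. None of the 7 held the full element TGACGTCA, which 1.55% of all promoters did. Within these 250 bases the CArG box was found in Egr2 alone of the 7, and in 1.47% of all promoters. Egr1, Egr3 and Arc were not among the 7, and sequence further upstream was not searched. These matches describe letters only, and none was tied to a level measured here.

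In Col1a1-free spots, the levels of these genes were higher in the brain at rest than in any injured brain. They were lowest in 1 of the 2 mice at 7 dpi. Egr3 was the exception to both. At 2 dpi these spots took in most of the 961 spots under 4000 UMIs, whereas at 7 and 21 dpi they left out the scar. Fos, the founding AP-1 gene, stood at 0.812 UMIs per 10000 in Col1a1-free spots at rest, 0.466 at 2 dpi, 0.124 and 0.464 in the mice at 7 dpi, 0.511 and 0.454 in wild-type mice at 21 dpi, and 0.219 and 0.344 in the deleter slices. The lowest of the injured brains and one near the top were both mice at 7 dpi. Junb, its dimer partner, followed with 1.02 at rest, 0.674 at 2 dpi, 0.298 and 0.607 at 7 dpi, 0.809 and 0.702 at 21 dpi, and 0.335 and 0.534 in the deleter slices. Fosb, whose truncated splice form accumulates with repeated activity, ran from 0.032 in slice 1 at 7 dpi to 0.114 at rest, on 22 to 180 UMIs a slice.

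Among the Egr genes, Egr1, a widely used marker of neuronal activity in the cortex, stood at 3.19 at rest, 1.35 at 2 dpi, 0.735 and 2.11 at 7 dpi, 1.86 and 2.52 at 21 dpi, and 2.17 and 2.04 in the deleter slices. Egr1 gave 28.9% to 39.1% of the UMIs of the 10 genes in each slice, so a sum over the genes leans on it. Egr3, which acts downstream of neurotrophin signalling and regulates Arc, went its own way, with 1.24 at rest, 0.723 at 2 dpi, 0.775 and 0.740 at 7 dpi, 0.923 and 1.12 at 21 dpi, and 1.46 and 1.23 in the deleter slices. Both 7 dpi slices therefore held like levels of Egr3, and a deleter slice exceeded the brain at rest. Egr4 ranged from 0.106 in slice 1 at 7 dpi to 0.423 at rest, and Egr2 from 0.037 to 0.132 in the same slices.

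The effector Arc had the widest range as a ratio of the highest to the lowest slice, while Egr1 spanned more UMIs per 10000. It stood at 1.49 at rest, 0.470 at 2 dpi, 0.099 and 0.628 at 7 dpi, 0.813 and 0.896 at 21 dpi, and 0.441 and 0.660 in the deleter slices. The slices at 7 dpi differed 6.37-fold in Arc (95% interval 4.87 to 8.43), 4.37-fold in Nr4a1, 3.74-fold in Fos and 2.87-fold in Egr1, but 0.955-fold in Egr3 (0.825 to 1.10), all as slice 2 over slice 1. These intervals are exact and cover counting error only. Nr4a1 ran from 0.180 in slice 1 at 7 dpi to 1.52 at rest, and Npas4, the member most tied to neurons, from 0.062 to 0.245 in the same slices.

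**Figure D1:**
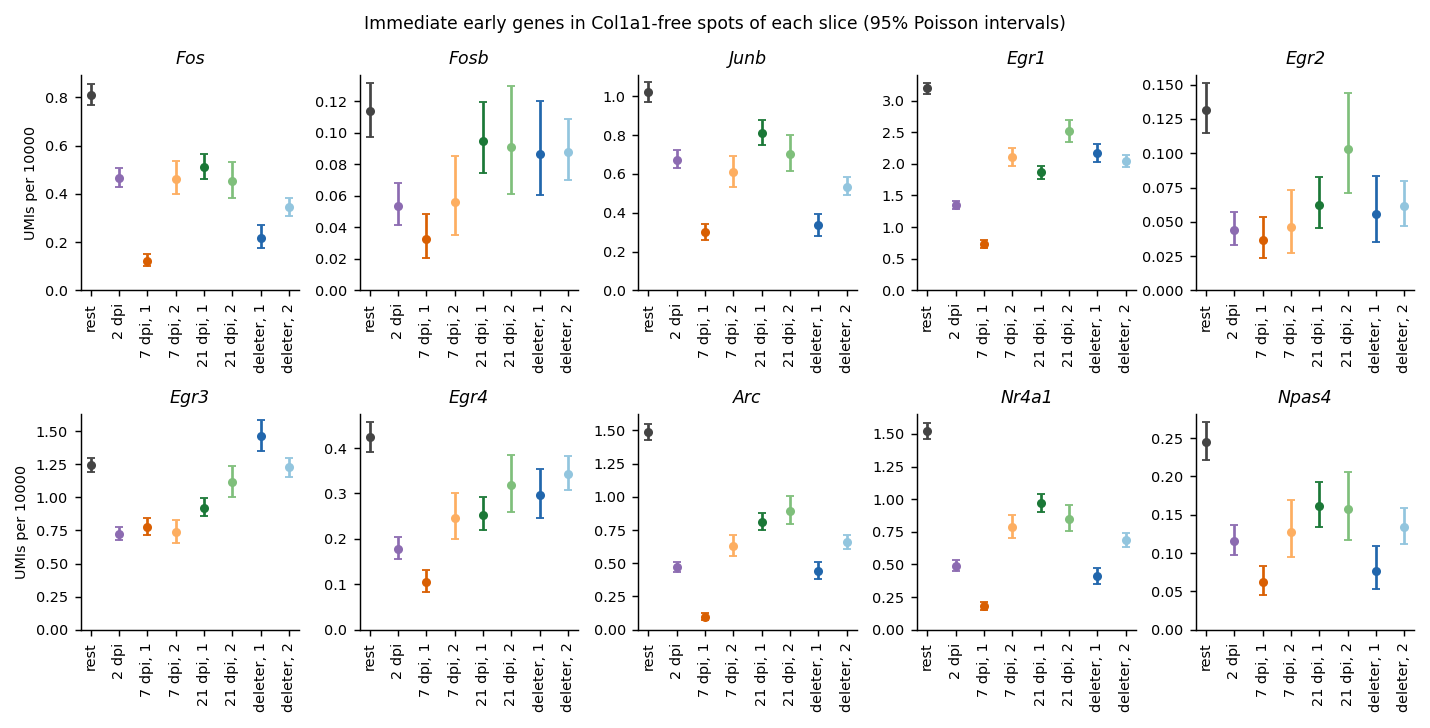
Level of each of the 10 genes in Col1a1-free spots of the 8 slices, in UMIs per 10000 (y axis, from 0), with exact 95% Poisson intervals as bars. The slice at rest is highest in 9 of the 10 panels and slice 1 at 7 dpi (dark orange) is lowest in 9. Egr3 is the exception to both, with its highest level, 1.46, in slice 1 of the deleter mice. The same counts over all genes were not made.

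Over all spots of a slice, the level at rest exceeded that of each of the 7 injured slices for all 10 genes, by between 1.15-fold for Egr3 and 2.22-fold for Arc over the highest injured slice. With 1 mouse at rest there is no replicate and no test, and how many of all genes were highest at rest was not counted. The neuronal markers Snap25, Syt1 and Rbfox3 did not follow the same order. They summed to 38.8 UMIs per 10000 in Col1a1-free spots at rest, to 19.9 at 2 dpi, to 22.9 and 35.4 at 7 dpi, to 42.3 and 53.0 at 21 dpi, and to 42.7 and 39.1 in the deleter slices. Per 100 UMIs of those markers, the 10 genes together gave 26.3 UMIs at rest, 22.9 at 2 dpi, 10.7 and 16.4 at 7 dpi, 15.3 and 13.6 at 21 dpi, and 13.0 and 15.6 in the deleter slices. On that scale the brains at rest and at 2 dpi lay above the 6 later slices, which overlapped between time points. The slices at rest and at 2 dpi shared a capture area that held no later slice, so time and area cannot be told apart.

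At 2 dpi, every one of the 10 genes was below rest. The ratio of 2 dpi to rest over all spots was 0.319 for Arc (95% interval 0.291 to 0.349), 0.323 for Nr4a1, 0.331 for Egr2, 0.411 for Egr4, 0.419 for Egr1, 0.439 for Fosb, 0.488 for Npas4, 0.571 for Fos, 0.579 for Egr3 and 0.675 for Junb. The summed neuron markers were lower as well, at 19.5 UMIs per 10000 over all spots against 38.6 at rest. In spots with at least 5 Slc17a7 UMIs per 10000 (Slc17a7 encodes the vesicular transporter of cortical glutamatergic neurons) the ratio of the 10 genes together was 0.522, against 0.448 over all spots. Such spots were not of like depth in the 2 slices. Those free of Col1a1 held 7420409 UMIs in 419 spots at rest and 2785299 UMIs in 423 spots at 2 dpi. In the poorest spots a single Slc17a7 UMI reaches that limit, so the spots are not matched in neurons.

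Whether these genes differed between 7 and 21 dpi was tested on UMIs summed per slice over Col1a1-free spots, 2 mice against 2. The edgeR quasi-likelihood test called 326 of 13905 genes (2.34%) and 0 of the 10 members. All 10 had negative log2 fold changes at 7 dpi, from -0.42 (SE 0.15) for Egr3 to -1.29 (SE 0.69) for Arc, with a median of -0.78 where the median of all genes tested was -0.002. The adjusted p ran from 0.209 for Fosb to 0.545 for Egr1. The mice at 7 dpi differed more than those at 21 dpi in Fos, Egr1, Arc and Nr4a1, but less in Egr2 and Egr3. Without slice 2 at 7 dpi, Arc stood at a log2 fold change of -3.13, with the lone slice assumed to vary like the other time point. Without slice 1 at 7 dpi, Fos stood at -0.04, Egr1 at -0.03 and Arc at -0.42, again with a lone slice. Without the filter on low counts Fos, Fosb, Junb, Egr1, Egr4, Arc and Nr4a1 passed, among 1525 of 20414 genes called, and with the deleter slices added Fosb passed (-1.12, adjusted p 0.036), among 1121 of 14149.

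Of 27 other immediate early genes tested in the same comparison, Atf3, a stress-induced partner of AP-1, was the 1 called, higher at 7 dpi by 2.79 on the log2 scale. None of 20 delayed activity-regulated genes and none of 16 upstream regulators were called. The markers of microglia and macrophages in Col1a1-free spots were higher at 7 dpi, at 7.35 and 9.33 summed UMIs per 10000 against 3.19 and 2.33 at 21 dpi. Time coincides with the capture area and with the sex of the mice, as Xist gave 1597 and 1281 UMIs at 7 dpi against 4 and 1 at 21 dpi, so these cannot be told apart.

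The wild-type and deleter mice at 21 dpi gave another pair of groups at 1 time point. The edgeR test called 0 of 13679 genes (0%), and so 0 of the 10 members, with 487 genes at an unadjusted p under 0.05 and 7 called by DESeq2. Both deleter slices lay below both wild-type slices in Fos, Junb, Arc, Nr4a1 and Npas4. They did so narrowly in Fosb (0.0879 against 0.0908 for the nearest slices) and in Egr2 (0.0617 against 0.0620). Both lay above in Egr3, and the groups overlapped in Egr1 and Egr4. How many of all genes tested kept the groups apart in this way was not counted. After normalization in edgeR the log2 fold change of Fosb, wild type over deleter, was -0.005 (SE 0.22). With 2 mice a group and no gene called, these orders carry no test. Genotype again coincides with the capture area. Sex differed in part, as Xist gave 1033 UMIs in slice 1 and 19 in slice 2 of the deleter mice, against 4 and 1 in wild type.

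Inside the scar the members parted into those called lower, as the neuron markers were, and those that were not. Fibrotic spots were set against Col1a1-free spots at 6 or more steps within the same slice, in the 4 wild-type slices, a comparison added after the data had been examined. The edgeR test with slice as a block called 8136 of 13654 genes (59.6%), 30.5% higher and 29.1% lower. Against that background, 7 of the 10 members were lower, 1 was higher and 2 were not called. The median of the 10 was -1.63 on the log2 scale, against 0.004 over all genes tested.

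Arc stood at 0.035 and 0.216 UMIs per 10000 in fibrotic spots at 7 dpi and at 0.148 and 0.133 at 21 dpi, against 0.118, 0.743, 0.808 and 0.898 in the far tissue of the same slices. Every slice was lower in the scar, and the log2 fold change was -2.20 (SE 0.21, adjusted p 5.24e-05 in edgeR). Npas4 fell by 2.57, Egr4 by 2.32, Fosb by 2.02, Egr3 by 1.66, Nr4a1 by 1.59 and Egr1 by 1.46 on the log2 scale, each with an adjusted p of at most 0.00203 in edgeR. The neuron markers moved alongside, with Snap25 at -2.37 and Slc17a7 at -2.33. In tissue sections, fewer neurons in a spot and less RNA per neuron cannot be told apart.

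Egr2, known from hindbrain patterning, myelination by Schwann cells and the activation of macrophages, moved the opposite way. It stood at 0.071 and 0.116 in fibrotic spots at 7 dpi and 0.134 and 0.091 at 21 dpi, against 0.029, 0.038, 0.056 and 0.054 in far tissue, a log2 fold change of 1.29 (SE 0.28, adjusted p 0.00469 in edgeR). The scar was higher in each of the 4 slices and the groups did not overlap, on 6 to 51 UMIs a slice in the scar and 9 to 28 in far tissue. In the deleter slices, which the test did not use, Egr2 stood at 0.097 and 0.072 in fibrotic spots against 0.043 and 0.040 in far tissue.

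The AP-1 genes Junb and Fos lay between, whereas Fosb was among the genes called lower. Junb gave 0.496, 0.601, 0.639 and 0.571 UMIs per 10000 in fibrotic spots and 0.242, 0.593, 0.764 and 0.606 in far tissue (log2 fold change 0.18, SE 0.21, adjusted p 0.485). The scar was higher in slice 1 at 7 dpi, and the other slices lay close together or the other way. Fos gave 0.177, 0.212, 0.295 and 0.263 against 0.103, 0.493, 0.463 and 0.413, a log2 fold change of -0.56 (SE 0.27, adjusted p 0.101) that passed, among the settings run, without the filter on low counts (-0.61, adjusted p 0.0393) and without slice 1 at 7 dpi (-0.78, adjusted p 0.00744).

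**Figure D2:**
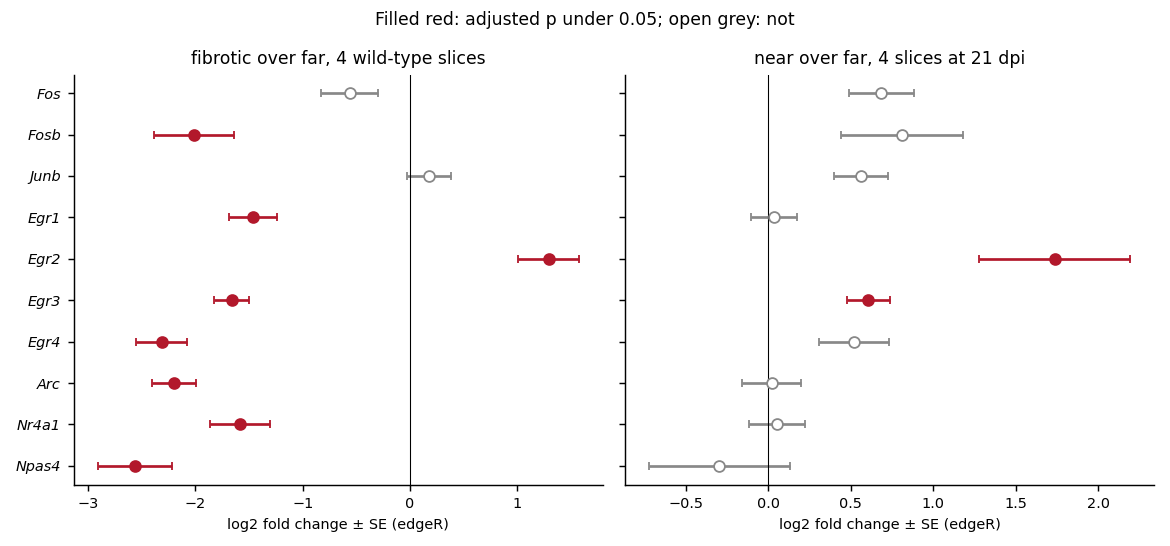
Log2 fold change (x axis) of each gene with a standard error derived from the edgeR F statistic, for fibrotic over far spots in 4 wild-type slices (left) and for Col1a1-free spots near over far from the scar in 4 slices at 21 dpi (right). On the left, 7 genes are called lower and Egr2 is called higher; on the right, Egr2 and Egr3 are called higher.

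The other genes of the response moved in both directions in the scar. Over all genes tested, 30.5% were higher and 29.1% lower. Of 28 other immediate early genes tested, 12 were higher and 5 lower, with a median of 0.52. The 4 largest were Atf3 at 3.93, the small Maf protein Maff at 2.67, Klf4 at 2.07 and the matricellular protein Ccn1 at 2.04 on the log2 scale. The 5 that were lower, named after their values were seen, were Nr4a2, Nr4a3, Dusp5, Dusp1 and Per1, at -1.94, -1.85, -1.64, -0.91 and -0.77.

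Delayed activity-regulated genes, which neurons switch on after the immediate early factors, counted 3 higher and 13 lower of 20, with a median of -1.28. The largest were Baz1a at 2.84, the prohormone convertase Pcsk1 at -2.82, the kinase Pim1 at 2.82 and the synaptic pentraxin Nptx2 at -2.51, and Rgs2 at 0.81 was the remaining higher gene. Of 16 upstream regulators, Mapk3 alone was higher, at 0.73, and 11 were lower. For this list and the delayed one, the shares over all genes tested were 30.5% higher and 29.1% lower. The NMDA receptor subunits Grin1, Grin2a and Grin2b stood at -2.69, -2.25 and -1.61, and the calcium-dependent kinase Camk4 at -1.99.

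Fibrotic spots differ among themselves in the cells they hold, which allows the members to be set against cell type markers without leaving the scar. Within each of the 6 slices at 7 and 21 dpi, fibrotic spots were split at the slice's median of a summed marker list, giving 671 spots above and 673 at or below. This description was added after the data had been examined and carries no test. With the markers of microglia and macrophages (P2ry12, Tmem119, Cx3cr1, Aif1, Cd68, Lyz2), Egr2 was higher in the marker-rich spots in 6 of 6 slices, at 0.123 against 0.0626 UMIs per 10000 over the slices together, on 123 and 41 UMIs. Junb was higher there in 5 of 6 slices, at 0.618 against 0.464.

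Egr3, Egr4 and Arc ran the other way in 6 of 6 slices, Arc at 0.0591 in the macrophage-rich spots against 0.264 in the others. With the neuron markers the order turned over. Arc was 7.09-fold, Egr4 6.03-fold, Egr3 4.66-fold and Egr1 2.68-fold higher in the neuron-rich spots, each in 6 of 6 slices, while Egr2 was lower there in 5 of 6 slices at 0.571-fold. Fos was at 0.930-fold with macrophage markers and 0.904-fold with neuron markers, higher in the rich spots in 1 of 6 slices each time. The divisions are not independent, since between 15.3% and 41.8% of the macrophage-rich spots of a slice were also neuron-rich. With fibroblast markers (Col1a1, Col1a2, Dcn, Lum), Egr2 was higher in the rich spots in 5 of 6 slices, at 0.111 against 0.0860. Junb was higher there in 3 of 6 slices, and Egr3, Egr4 and Arc in 0 of 6. With endothelial markers, no gene was higher or lower in all 6 slices.

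**Figure D3:**
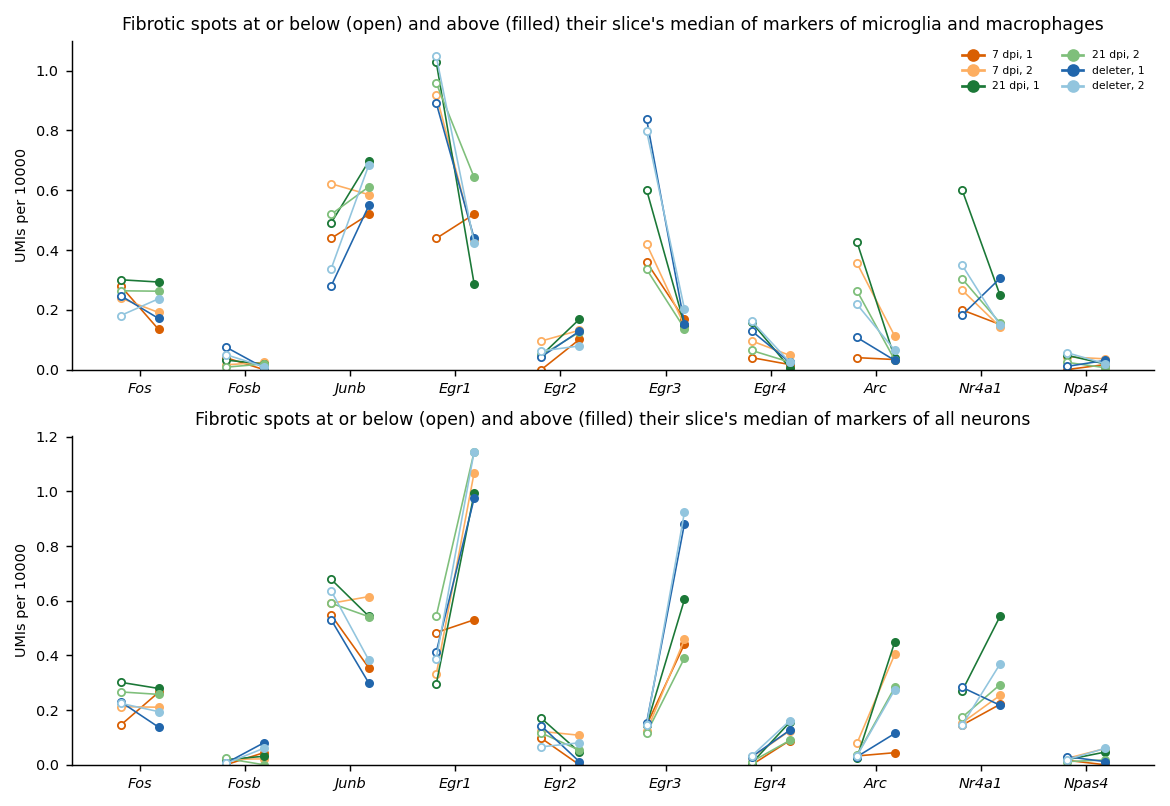
Level of each gene, in UMIs per 10000 (y axis), in fibrotic spots at or below (open) and above (filled) their own slice's median of the markers of microglia and macrophages (top) or neurons (bottom), with a line for each of 6 slices. Egr2 rises to the filled side in the top panel in 6 of 6 slices, and Egr1, Egr3, Egr4 and Arc do so in the bottom panel.

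Beyond the scar, the question was whether tissue next to it held more of these transcripts than tissue far away. Near spots, Col1a1-free and at 1 or 2 steps, numbered 25 to 51 in the 4 wild-type slices and far spots 126 to 418. The edgeR test with slice as a block called 653 of 11994 genes (5.44%) and 0 of the 10 members. The log2 fold changes ran from -0.65 (SE 0.49) for Npas4 to 1.41 (SE 0.55, adjusted p 0.165) for Egr2, with Junb at 0.50 (SE 0.21) and Egr3 at 0.44 (SE 0.17). With the deleter slices added, edgeR called Junb (0.54, adjusted p 0.0458), Egr2 (1.61, adjusted p 0.0242) and Egr3 (0.51, adjusted p 0.0152), among 1106 of 12210 genes called. In the 4 wild-type slices Atf3 at 2.44 and Nr4a2 at -1.54 were called among 26 other immediate early genes, none of 19 delayed genes, and Mef2c at 0.79 and Camk4 at -1.75 among 16 upstream regulators. The test of whether this difference itself changed from 7 to 21 dpi called 197 of 11994 genes (1.64%) and 0 of the 10. The standard errors of the members in that test ran from 0.30 for Egr1 to 1.28 for Fosb on the log2 scale. On simulated counts that test recovered 1% of 2-fold and 12% of 4-fold changes, so it could miss large changes too.

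Taking the 4 slices at 21 dpi alone, the 2 deleter slices included, the test called 508 of 11630 genes (4.37%) and 2 of the 10 members. This comparison was added after the data had been examined and shares the wild-type slices with the one before it. Egr3 stood near the scar at 1.33 and 1.24 UMIs per 10000 in wild-type slices and 1.82 and 1.87 in deleter slices, against 0.780, 1.02, 1.22 and 1.08 in their far tissue. Each slice was higher near the scar, by 0.61 on the log2 scale (SE 0.13, adjusted p 0.0099 in edgeR).

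Egr2 stood at 0.111, 0.222, 0.061 and 0.280 near the scar against 0.056, 0.054, 0.043 and 0.040 far from it (log2 fold change 1.74, SE 0.46, adjusted p 0.0328), on 3 to 13 UMIs a slice near the scar. Single slices decided both calls. Egr2 was no longer called without slice 2 of the deleter mice (1.15, adjusted p 0.356) or without wild-type slice 2 (1.70, adjusted p 0.0976), and Egr3 without slice 2 of the deleter mice (0.55, adjusted p 0.0709) or without wild-type slice 1 (0.55, adjusted p 0.0591). Fos at 0.68 (adjusted p 0.0529) and Junb at 0.56 (adjusted p 0.0587) lay just outside the threshold. Arc, Egr1 and Nr4a1 gave 0.02, 0.03 and 0.05, with standard errors of 0.18, 0.14 and 0.17.

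The near and far tissue also differed in cortical depth. Upper-layer markers (Cux2, Lamp5, Rasgrf2) summed to between 4.49 and 6.39 UMIs per 10000 near the scar and 1.62 to 3.17 far from it at 21 dpi, oligodendrocyte markers to 30.3 to 49.2 against 55.5 to 88.8, and microglia and macrophage markers to 4.82 to 5.73 against 1.77 to 2.73. The part of these differences in the values of Egr2 and Egr3 was not tested. In the other gene lists at 21 dpi, Ccn2 at -2.01 and Nr4a2 at -1.96 were the 2 of 26 other immediate early genes called, both lower near the scar. The kinase Mapk4 at 1.28 was the 1 of 18 delayed genes called. Of 16 upstream regulators, Mef2c, Grin2b and Camk2a were higher, at 0.70, 0.69 and 0.68, and Camk4 was lower, at -1.55.

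**Figure D4:**
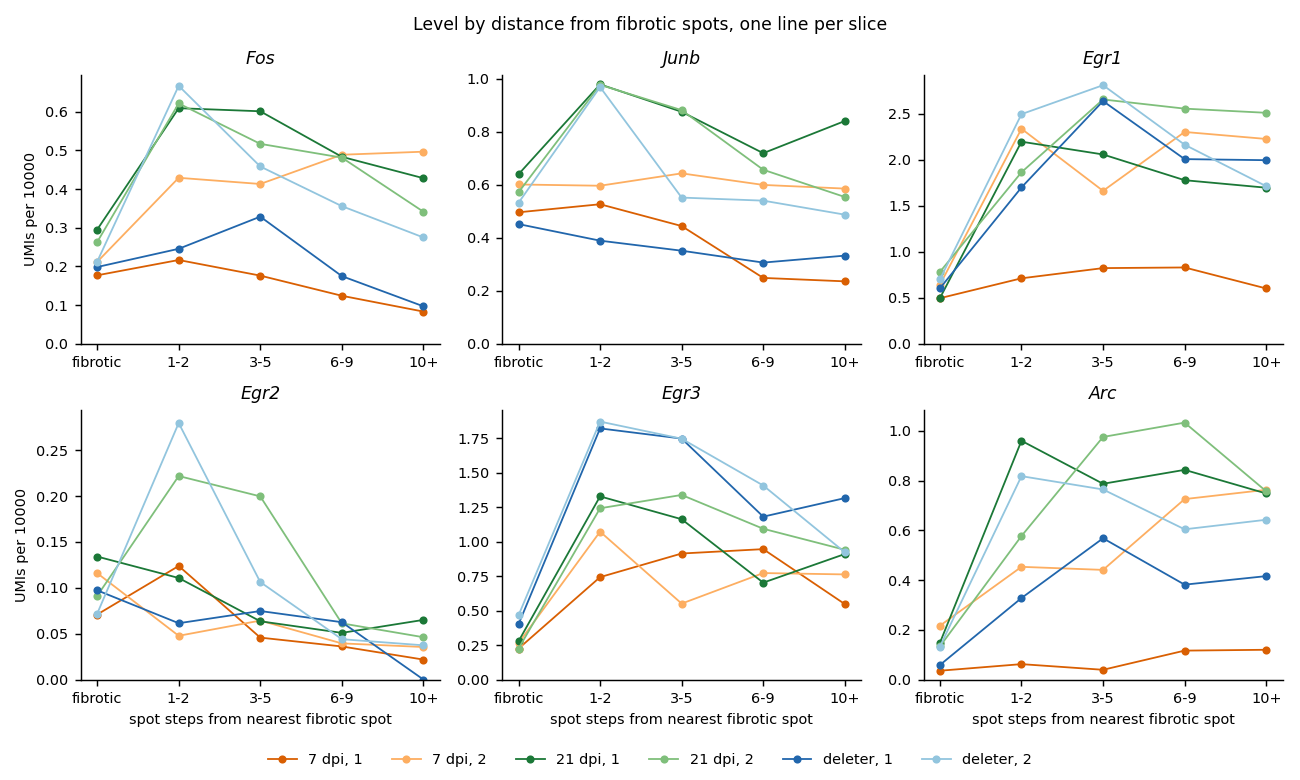
Level of 6 of the genes, in UMIs per 10000 (y axis, from 0), in fibrotic spots and in Col1a1-free spots at rising distance from them (x axis, in spot steps), with a line for each of the 6 slices at 7 and 21 dpi. Egr1, Egr3 and Arc are lowest in fibrotic spots in all 6 slices, whereas Junb and Egr2 are not; Egr3 peaks within 5 steps in 5 of 6 slices.

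Egr3 in the wild-type slices at 21 dpi went from 0.277 and 0.224 in the scar to 1.33 and 1.24 at 1 to 2 steps. It stood at 1.16 and 1.34 at 3 to 5 steps, and 0.911 and 0.941 at 10 or more. Junb in the same slices went from 0.639 and 0.571 through 0.978 and 0.976 to 0.840 and 0.554. Spots between 5 and 10 steps are not listed here. In slice 1, far tissue as a whole held less Egr3 and Junb than its spots at 10 or more steps. Levels in that slice therefore did not fall steadily with distance. In slice 2, far tissue as a whole held more of both than its spots at 10 or more steps. At 7 dpi the profile of Arc differed between the mice as its level did, reaching 0.120 at 10 or more steps in slice 1 and 0.763 in slice 2.

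Across single Col1a1-free spots, the genes followed Slc17a7 weakly. Pearson correlations of log2(UMIs per 10000 + 1) within a slice, averaged over the 8 slices, were 0.25 for Egr1, 0.19 for Arc, 0.16 for Egr3, 0.14 for Nr4a1, 0.10 for Egr4, 0.07 for Fosb and Npas4, 0.06 for Fos, 0.05 for Junb and 0.002 for Egr2. The 10 genes summed gave 0.27, from 0.11 at 2 dpi to 0.47 in slice 2 at 7 dpi. Spots of a slice share its library and differ in depth, so these values are descriptions. With every spot thinned to 2000 UMIs, which left out 755 of the 1641 Col1a1-free spots at 2 dpi, the mean for the sum dropped to 0.10. Thinning adds counting noise, and its part in the drop was not tested. Of the single genes Nr4a1 then had the highest mean, 0.070 (0.030 to 0.121 over the slices). Egr1 stood at 0.058 (-0.026 to 0.184), so the order of these genes was not settled.

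**Figure D5:**
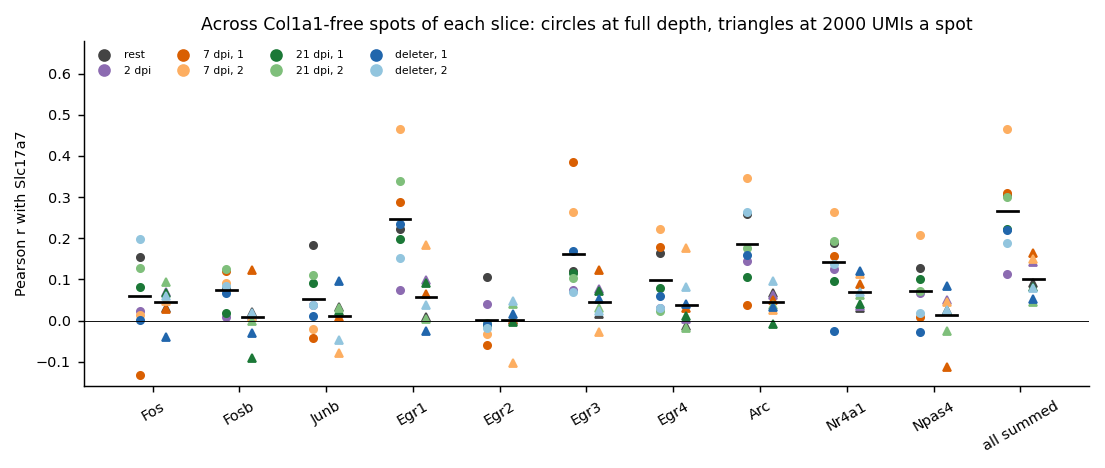
Pearson correlation with Slc17a7 (y axis) across Col1a1-free spots for each gene and for their sum, with a point for each of the 8 slices and a bar at their mean; circles use all UMIs and triangles 2000 UMIs a spot. At full depth Egr1 has the highest mean of the single genes, 0.25, and Egr2 lies at 0.002. At 2000 UMIs a spot Nr4a1 has the highest mean of the single genes, 0.070.

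The members tracked each other about as loosely. The closest pairs were Egr1 with Egr3 at a mean correlation of 0.28, Egr1 with Arc at 0.26 and Egr1 with Nr4a1 at 0.25, and the most distant was Egr2 with Arc at 0.04. Among 8656 other genes with a UMI in at least 10% of these spots in every slice, those most like the summed members were Nrgn at 0.45, Meg3 at 0.42, Snhg11 at 0.42, Snap25 at 0.41 and Calm2 at 0.41, over the 8 slices. Gene by gene, the nearest was 1110008P14Rik for Fos, Gda for Fosb, Dkk3 for Junb, Snhg11 for Egr1, Arpp21 for Egr2, Nrgn for Egr3, Nsg2 for Egr4, Vsnl1 for Arc, and Meg3 for Nr4a1 and Npas4, with mean correlations from 0.11 for Egr2 to 0.40 for Egr1.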

How the data were processed

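Raw UMI counts per spot and gene were deposited by the authors for 4 Visium capture areas, made with Space Ranger 2.0.0 and the mm10 build per the labels; no count had been normalized. The 10 genes and the gene lists were chosen with earlier results of these data known. Each area was split into its 2 connected tissue pieces. The piece at rest was told from that at 2 dpi by its outline, compared with the slices the study draws (1017 and 1726 spots). Other pieces were numbered by array column, which names them only. The 2587 barcodes found in 2 or more areas are array positions, not cells.

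UMIs were summed per slice, since spots are not replicates, and tested with edgeR 4.0.16 (R 4.3.3; TMM, filterByExpr, quasi-likelihood F test, Benjamini-Hochberg over all genes, threshold 0.05), with slice as a block where 2 zones of a slice were compared and at least 20 spots in each sum. p-values measure the spread between single slices of 1 mouse each. Where slice was a block, they measure the spread over slices of the difference between zones. DESeq2 1.42.0, RLE factors, no filter on low counts, other zone limits and each slice left out were alternatives. The code was tested on simulated data, where the test of 7 against 21 dpi recovered 15% of 2-fold and 88% of 4-fold changes. The simulated counts gave every gene the same spread between slices. They did not hold the wider spread of Arc, Nr4a1 and Fos between the mice at 7 dpi, so these shares do not hold for those genes. Intervals of levels are exact Poisson and of ratios exact conditional binomial, at 95%. Correlations used spots of at least 1000 UMIs and a pseudocount of 1. Figures were drawn with matplotlib 3.10.9. All members were named. From each list the 2 to 4 genes with the largest change among those called were named, and the genes most like the members were taken by mean correlation over slices. Every member passed the filter on low counts in all comparisons.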

Additional observations from a re-analysis of the deposited data

How the results depend on the processing

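At an adjusted p under 0.05, the 326 genes called between 7 and 21 dpi became 6 over all tissue spots, 4 in Slc17a7-rich spots, 3 at 6 or more steps, 1121 with the deleter slices added and 1525 without the filter on low counts. Wild type against deleter, 0 genes, gave 7 with DESeq2 and 122 without the filter. Near against far, 653 genes, gave 359 with near at 1 to 3 steps, 1106 with the deleter slices, 1087 without the filter and 8 with no replicate block. Its change between time points, 197 genes, gave 104 with far at 8 or more steps, 425 with the deleter slices and 42 with DESeq2. The mean correlation of the summed genes with Slc17a7 was 0.10 at 2000 UMIs a spot and 0.37 over all tissue spots. The ratio of 2 dpi to rest, 0.448, was 0.433 in spots of at least 6000 UMIs and 0.522 in Slc17a7-rich spots.

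With single slices left out, the counts ran from 45 to 382 between time points, 0 to 3 between genotypes, 145 to 1094 near against far, 79 to 343 for its change, 6390 to 7702 in the scar and 210 to 349 near against far at 21 dpi. Log2 fold changes that changed sign near against far ran from -0.29 to 0.73 for Fosb, -0.14 to 0.17 for Egr1, -0.090 to 0.38 for Egr4 and -0.41 to 0.12 for Nr4a1. At 21 dpi they ran from -0.10 to 0.17 for Egr1, -0.11 to 0.18 for Arc, -0.089 to 0.20 for Nr4a1 and -0.71 to 0.058 for Npas4, and in the scar from -0.049 to 0.33 for Junb. Near against far, a minimum of 3 Col1a1 UMIs gave Fosb -0.017 and Egr1 -0.013, no filter gave Egr1 -0.047, and near at 1 to 3 steps gave Egr4 -0.051. None of these passed the threshold, and the cause was not tested. The 8 genes called in the scar were called under every setting run.

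Slc17a7-rich spots near the scar were too few for a sum in all but 1 wild-type slice, so that setting was not run for near against far. The labels give no replicate numbers, so no mice were paired between groups; zones of the same slice were paired through the slice block. Depth limits the sparse members most: near the scar at 21 dpi a slice held 0 to 8 UMIs of Npas4, 2 to 10 of Fosb and 3 to 13 of Egr2.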

Other observations

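Of the 1726 spots of the slice at 2 dpi, 961 held under 4000 UMIs. Steps here were counted from the nearest spot under the UMI limit in use, and not from fibrotic spots. The spots under 4000 UMIs themselves held Fos at 0.565 UMIs per 10000 (95% Poisson interval 0.445 to 0.708) and the 10 genes together at 5.64. In the richer spots Fos stood at 0.623 UMIs per 10000 (95% Poisson interval 0.529 to 0.728) at 1 to 2 steps, 0.476 (0.417 to 0.540) at 3 to 5 steps 0.311 (0.258 to 0.370) at 6 to 9 steps and 0.154 (0.0317 to 0.449; 12 spots, 3 UMIs) at 10 or more. With the limit at 2500 UMIs Fos gave 0.657, 0.497 and 0.338, and was higher again at 10 or more steps, at 0.436 (0.290 to 0.631; 42 spots, 28 UMIs). With the limit at 6000 UMIs it gave 0.557, 0.392 and 0.384, where the last pair of intervals overlapped, so the order beyond 5 steps depended on the limit. Over the first 3 distance classes Arc did not follow that order, at 0.401, 0.526 and 0.425, and neither did Egr1, at 1.13, 1.41 and 1.21, with the limit at 4000 UMIs. The 10 genes together gave 4.33, 4.91 and 3.90 over these classes. The tissue changed as well, with Snap25 at 13.8, 16.9 and 11.1 and the oligodendrocyte gene Mbp at 23.0, 25.6 and 35.9. The part of this change in the values of Fos was not tested. The slice is a single mouse, and the intervals cover counting error only.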
